A study of Mus musculus with 8 samples.

Results

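In mouse embryonic fibroblasts reprogrammed for 5 days with Oct4 and NanogBiD, 2369 genomic regions carried NANOG, BRG1 and H3K27ac peaks that were all missing from cells reprogrammed with Oct4 and NanogWT. These gained regions were chosen by peak calls alone. FLAG (NANOG) and BRG1 peaks of both arms were merged wherever they overlapped or touched, which gave 93352 regions, and a region was kept when it had FLAG and BRG1 peaks in NanogBiD, neither in NanogWT, an H3K27ac peak in NanogBiD overlapping it by at least 1 bp and no H3K27ac peak in NanogWT. Of 10376 regions whose FLAG and BRG1 peaks were both restricted to NanogBiD, they made up 22.8% (Wilson 95% interval 22.0 to 23.6), and of all merged regions 2.54%. Across all 93352 regions the share with an H3K27ac peak in NanogBiD only was 13.1%; since the rule used these calls, nothing is read from that comparison.

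The cells were OG2 MEFs, fibroblasts with an Oct4-GFP reporter allele taken from E13.5 embryos of either sex, and every group carried retroviral Oct4. The arm labelled Nanog+Oct4 (NanogWT) also received wild-type Nanog. The arm labelled NanogN70+Oct4 received, per the study's text, NanogBiD, in which the BRG1-interacting domain from the N-terminus of SS18 was joined to NANOG by a short linker. CUT&Tag libraries for FLAG, BRG1 (Smarca4), H3K27ac and H3K4me1 were made at day 5 in both arms, so there were 8 groups with 1 library each, merged by the authors from replicates (the study states a minimum number of replicates for all its experiments together, and no number for CUT&Tag). The sources used here name no sort of the cells before CUT&Tag, and both factors were expressed from retroviral vectors. With 1 library per group no difference between arms could be set against the spread between cultures, and no test of that kind was made.

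NANOG is a homeodomain transcription factor of the pluripotency network. BRG1 is the ATPase of the BAF (SWI/SNF) complexes, which slide and evict nucleosomes, and SS18 is a subunit of BAF that binds BRG1. H3K4me1 marks enhancers whether or not they are in use, whereas H3K27ac is added at active enhancers and promoters. In fibroblasts many enhancers in use are bound by AP-1, TEAD and RUNX factors, and in pluripotent cells by OCT4, SOX2, NANOG, KLF and ESRRB.

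Each list had 30859 to 74782 peaks. The number of sequenced tags is unknown, so an absent peak is a signal below the peak caller's limit and not a measured zero. FLAG, BRG1 and H3K27ac lists were longer in NanogBiD, while the H3K4me1 list was longer in NanogWT (72242 against 57156 peaks). An H3K27ac peak lay within 2 kb of a start site of 9 of 10 fibroblast marker genes in both arms, among them Col1a1, Fn1 and Vim. Of 8 pluripotency markers 0 had such a peak in NanogWT and 2, Tdgf1 and Sall4, in NanogBiD. Of 16 markers of endothelial, blood, epithelial and neural cells, 2 had one in NanogWT (Cd68 and Map2) and 8 in NanogBiD, where Cdh5, Kdr, Ptprc, Krt8, Tubb3 and Pax6 were added. The part of other cell types in the gained regions was not tested.

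Sequence at the centre of a gained region is shown for 2 sets, as examples of the motifs counted below: 4 of the regions with the highest peaks, picked because they hold a match, and 4 of those holding the core of the composite OCT-SOX site. Most gained regions hold no match, among them the high regions at Tln2, Phf2 and Gm11508. Each run is the plus strand of GRCm38 (the sequence of mm10), 50 bp either side of the highest FLAG summit, with capitals for matches, on either strand, to the short motifs described below.
Mrpl1 intron, chr5:96219658-96219758, a RUNX match: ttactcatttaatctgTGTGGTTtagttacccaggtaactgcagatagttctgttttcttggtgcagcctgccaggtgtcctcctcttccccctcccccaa
Intergenic, nearest coding gene Moxd1, chr10:24338129-24338229, a SOX match: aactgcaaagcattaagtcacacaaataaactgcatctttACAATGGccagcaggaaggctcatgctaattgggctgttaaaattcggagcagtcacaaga
Myocd intron, chr11:65209672-65209772, a TEAD and then an AP-1 match: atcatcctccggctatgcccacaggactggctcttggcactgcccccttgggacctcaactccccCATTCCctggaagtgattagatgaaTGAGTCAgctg
Dip2b intron, chr15:100063482-100063582, a NANOG and then a KLF match: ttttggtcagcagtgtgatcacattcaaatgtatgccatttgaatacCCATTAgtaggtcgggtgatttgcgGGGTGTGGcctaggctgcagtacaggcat
Sntb2 intron, chr8:106985494-106985594, an OCT-SOX core: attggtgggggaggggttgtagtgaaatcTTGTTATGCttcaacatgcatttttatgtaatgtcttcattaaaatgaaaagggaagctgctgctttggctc
Msi2 intron, chr11:88526883-88526983, an OCT-SOX core: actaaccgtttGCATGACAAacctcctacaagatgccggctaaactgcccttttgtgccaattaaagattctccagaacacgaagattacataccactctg
Ube2h intron, chr6:30272529-30272629, an OCT-SOX core: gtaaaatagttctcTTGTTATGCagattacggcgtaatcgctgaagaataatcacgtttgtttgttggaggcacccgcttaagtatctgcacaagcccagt
Mpped2 intron, chr2:106750984-106751084, a SOX match and then an OCT-SOX core: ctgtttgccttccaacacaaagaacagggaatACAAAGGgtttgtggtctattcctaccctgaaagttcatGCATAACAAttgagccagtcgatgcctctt

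The gained regions had a median width of 1017 bp, between 455 and 4446 bp, against 950 bp over all merged regions, and low H3K27ac peaks. Summit height, the number of tags piled up at the top of a peak, had a median of 18 tags for FLAG (quartiles 14 and 23), 12 for BRG1 (10 and 15) and 12 for H3K27ac (11 and 15). Over all merged regions with the respective NanogBiD peak the medians were 15 tags for FLAG, 13 for BRG1 and 17 for H3K27ac. These heights belong to the peaks that chose the regions and are given as a description. Next to the rule's limit, 804 gained regions (33.9%) had a lowest score under 60 among their 3 peaks, where the lowest score in every list was 50. On the other side, 5381 regions with all 3 peaks in NanogBiD were kept out by a single NanogWT peak, which was FLAG in 4520 and whose median score was 116.

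2 sets of regions are used for comparison below. The unacetylated fusion-only regions, 7310 in number, had FLAG and BRG1 in NanogBiD only and no H3K27ac peak in either arm. The shared-NANOG regions, 4520 in number, had FLAG in both arms, with BRG1 and H3K27ac in NanogBiD only. FLAG and BRG1 heights of the gained regions lay between those of both sets, with medians of 15 and 10 tags in the unacetylated and 22 and 14 in the shared-NANOG regions. H3K27ac peaks were also low in shared-NANOG regions, with a median of 13 tags (quartiles 11 and 15). Within the gained regions FLAG and BRG1 heights rose together across regions (Spearman 0.674, n = 2369), and H3K27ac height followed FLAG (0.270) and BRG1 (0.323) less closely. The FLAG and BRG1 correlation was 0.525 in unacetylated and 0.775 in shared-NANOG regions. In the latter, H3K27ac height followed FLAG at 0.343 and BRG1 at 0.392. These correlations are across regions, which share libraries and local mappability and are not independent.

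**Figure D1:**
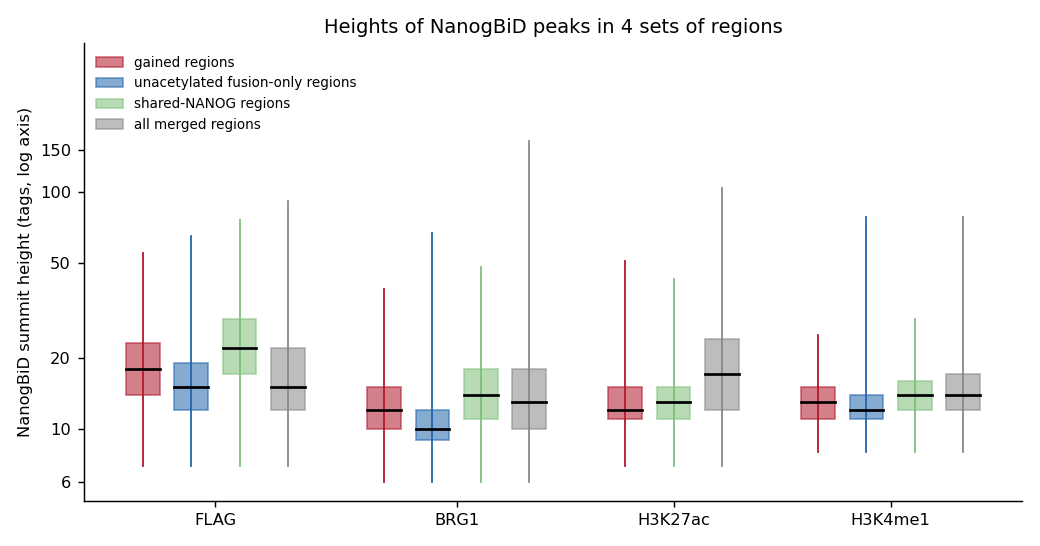
Summit heights of NanogBiD peaks in tags on a log axis, for the gained regions, the comparison sets and all merged regions with such a peak; boxes span the quartiles, black lines are medians and thin lines run from the lowest to the highest value. Unacetylated regions have no H3K27ac box. The FLAG median of the gained regions, 18 tags, lies between 15 and 22. Their H3K27ac median of 12 is below the 17 of all regions and near the 13 of shared-NANOG regions.

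The 10 gained regions whose lowest of 3 heights was highest had at least 25 tags for each target. Several were next to acetylation of NanogWT: 4 of the 10 lay within 1 kb of a NanogWT H3K27ac peak (Trib1 at 0.176 kb, Myocd at 0.229, the Phf2 region at 0.589 and Mrpl1 at 0.623), against 4.35% of all gained regions, while Tln2 and Ncaph were at 1.57 and 1.74 kb. The first of them, on chromosome 15 from 59651769 to 59654617, had 49 tags for FLAG, 39 for BRG1 and 47 for H3K27ac. Its summit lay in a UTR exon of Trib1, a pseudokinase that promotes degradation of C/EBP factors, 4.35 kb from the start site. A region in an intron of Mrpl1, which encodes a mitochondrial ribosomal protein, had 40, 29 and 31 tags. An intergenic region on chromosome 10 from 24336651 to 24340247, 115 kb from the nearest coding start site (Moxd1), had 49, 32 and 27 tags.

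An intron of Tln2, encoding a talin that links integrins to actin, held 36, 27 and 27 tags for FLAG, BRG1 and H3K27ac. An intron of Myocd, encoding the smooth muscle coactivator myocardin, held 43, 26 and 36 tags, 4.26 kb from a start site. The remaining regions were intronic in Dip2b (28, 26 and 28 tags) and Gm11508 (44, 39 and 25), or intergenic, among them those with Phf2 and Ncaph as nearest coding genes. H3K4me1 was not part of the rule, and among these regions it was found in NanogBiD alone at Myocd with 14 tags, Dip2b with 23 and Gm11508 with 18. No H3K4me1 peak was found in either arm at Trib1, Mrpl1, Tln2 and the regions near Moxd1, Phf2 and Ncaph. That state was seen at 38.8% of all gained regions.

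H3K4me1, which the rule did not use, was found in NanogBiD only at gained regions more often than at unacetylated fusion-only regions or over all other regions. A peak in NanogBiD only was found at 616 of the 2369 regions, 26.0% (24.3 to 27.8), against 9.52% of all merged regions, and 16.9 percentage points above all other regions (15.2 to 18.7). The share was 16.1% in unacetylated fusion-only regions, a difference of 9.90 percentage points (Newcombe 95% interval 7.97 to 11.9). It was 19.9% in shared-NANOG regions, 6.11 points below the gained regions (4.02 to 8.25). That difference depended on the settings: it was -1.01 points (-3.18 to 1.20) when summit windows were merged and 3.29 (-0.97 to 7.60) with the 20000 best peaks of each list. A region with an H3K4me1 peak in NanogWT cannot count as NanogBiD only. Such a peak was at 53.8% of shared-NANOG and 35.2% of gained regions. Of the regions without it, 899 shared-NANOG regions had H3K4me1 in NanogBiD and 1191 had none. For gained regions these numbers were 616 and 920. The 6.11 points are therefore not a difference among regions free of H3K4me1 in NanogWT. With scores of at least 100 in all lists, H3K4me1 included, the NanogBiD-only share of gained regions was 16.1% (14.0 to 18.5). Its difference from unacetylated regions was 9.09 points (6.82 to 11.6). All such intervals cover counting error over regions only. The opposite state, H3K4me1 in NanogWT only, was found at 221 gained regions, 9.33% (8.22 to 10.6), and at 13.9% of all regions. It too was more frequent than in unacetylated fusion-only regions, where its share was 6.09% (difference 3.24 points, 1.996 to 4.59).

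H3K4me1 in NanogWT, where these regions had no NANOG, BRG1 or H3K27ac peak, was less frequent at gained regions than over all regions and more frequent than at unacetylated ones. It was found at 833 gained regions, 35.2% (33.3 to 37.1), and at 50.1% of all regions, a difference of -15.3 points from all other regions (-17.2 to -13.3). The share was 14.7% in unacetylated fusion-only regions, a difference of 20.4 points (18.4 to 22.5) that was 7.62 (4.97 to 10.6) with the 20000 best peaks. Shared-NANOG regions, which had a NANOG peak in NanogWT by the rule that defines them, carried it more often, at 53.8%. A further 920 gained regions (38.8%) had no H3K4me1 peak in either arm, compared with 69.2% of unacetylated fusion-only regions and 40.4% of all regions. The share of gained regions with H3K4me1 in NanogBiD did not rise steadily with H3K27ac height. It was 46.9% (42.9 to 50.9) in the 593 regions with the lowest H3K27ac peaks, then 55.6% and 51.0%, and 53.9% (49.9 to 57.9) in the 592 with the highest.

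**Figure D2:**
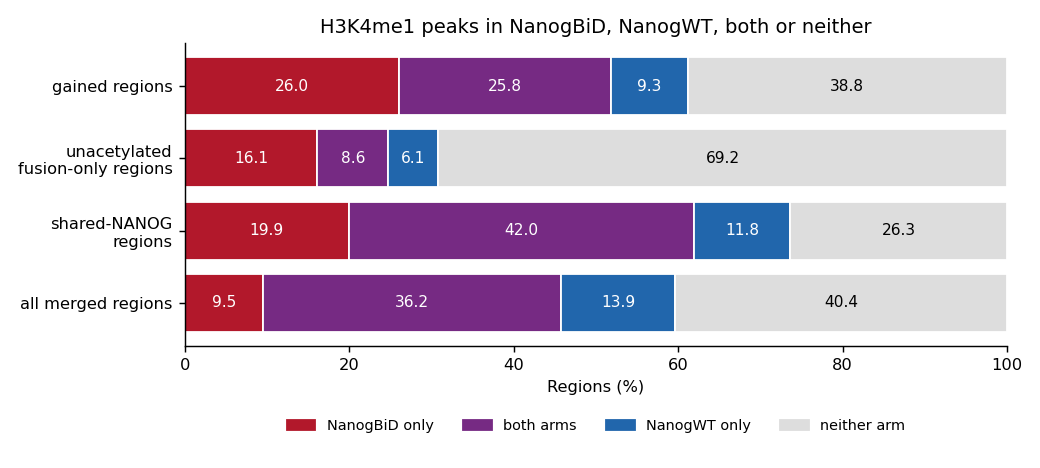
Shares of regions in percent with an H3K4me1 peak in NanogBiD only, both arms, NanogWT only or neither, as stacked bars for the gained regions, the comparison sets and all merged regions. The NanogBiD-only segment is 26.0% in the gained regions and 9.5% over all regions.

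Both kinds of H3K4me1 state varied with the NANOG signal, in opposite directions. They exclude each other, so where fewer regions had H3K4me1 in NanogWT, more could count as NanogBiD only. In gained regions with a FLAG height under 15 tags, 18.6% (135 of 725) had H3K4me1 in NanogBiD only and 48.4% (351) had it in NanogWT. At FLAG heights of 20 tags or more these shares were 32.9% (317 of 964) and 24.9% (240). The NanogBiD-only share among regions without H3K4me1 in NanogWT was not computed by band. Unacetylated fusion-only regions went from 14.0% to 20.7% and from 19.3% to 7.63% over the same bands. The gained regions exceeded them in every band, by between 4.60 and 12.2 points for H3K4me1 in NanogBiD only and by between 17.3 and 29.1 points for H3K4me1 in NanogWT, and each of these intervals excluded 0. GC content, higher in the gained regions as given below, moved with both. From under 40% over 40% to 45% to higher GC, the difference was 13.04, 7.53 and 5.49 points for H3K4me1 in NanogBiD only and 10.8, 12.4 and 19.3 points for H3K4me1 in NanogWT, again with intervals that excluded 0. At promoters the difference in NanogBiD-only H3K4me1 was 1.70 points (-3.42 to 7.23) and elsewhere it was 11.03 (8.96 to 13.2). At promoters 44.6% of gained and 18.4% of unacetylated regions had H3K4me1 in NanogWT and could not count as NanogBiD only. Elsewhere these shares were 33.7% and 14.4%. They were 17.4% and 6.52% under 40% GC, and 47.2% and 27.9% at 45% GC or more. The NanogBiD-only differences by place and GC content thus do not compare regions free of H3K4me1 in NanogWT.

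**Figure D3:**
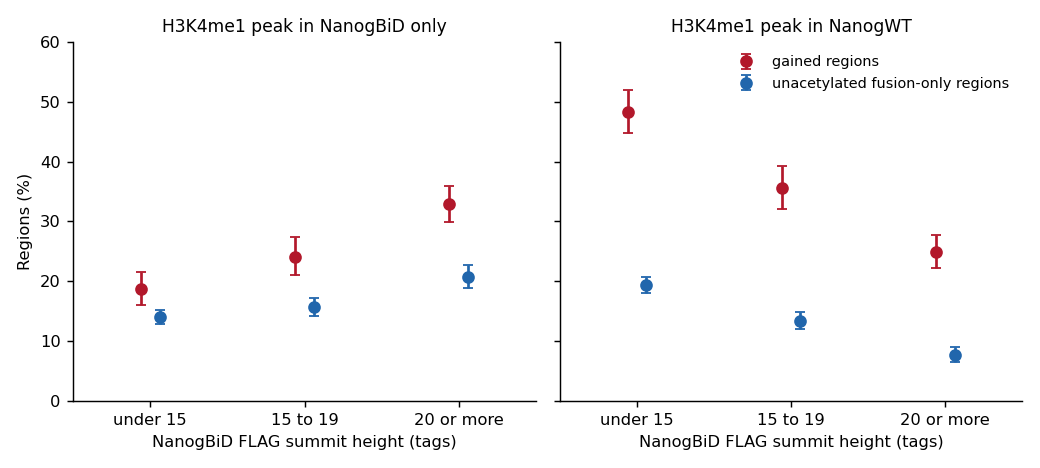
Percent of regions with H3K4me1 in NanogBiD only (left) and in NanogWT (right) by FLAG summit height in NanogBiD, for gained and unacetylated fusion-only regions; points are shares and bars Wilson 95% intervals. From the lowest to the highest band the gained regions go from 18.6% to 32.9% on the left and from 48.4% to 24.9% on the right. A region counted on the right cannot count on the left.

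Where H3K4me1 peaks were present in both arms their heights were alike. Over 612 gained regions the median log2 ratio of NanogBiD over NanogWT height was 0.00 (-0.09 to 0.00), with quartiles of -0.29 and 0.14, and over all 33813 regions with both peaks it was -0.18. A height at least 2-fold higher in NanogBiD was seen at 1 of the 612 gained regions, and at 6 (0.0177%) of the 33813 regions. A height at least 2-fold lower was seen at 2 of the 612, and at 287 (0.849%) of the 33813. These ratios include any difference in depth between the libraries.

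The summits of the other targets lay close to the NANOG summit. In gained regions the median distance from the FLAG summit was 68 bp for BRG1 (63 to 75), 95 bp for H3K27ac (90 to 102) and 114 bp for H3K4me1 (104 to 126). Over all regions the medians were 70, 104 and 116 bp. Within 250 bp lay 90.2% of BRG1 and 82.1% of H3K27ac summits. The H3K27ac peaks themselves, which the rule used, are given as a description. The highest H3K27ac summit lay inside the region's own borders at 97.8% of gained regions. The H3K27ac peaks on them had a median width of 798 bp against 1159 bp for all NanogBiD H3K27ac peaks, and 23 regions had an H3K27ac peak that also reached a NanogWT H3K27ac peak outside the region.

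**Figure D4:**
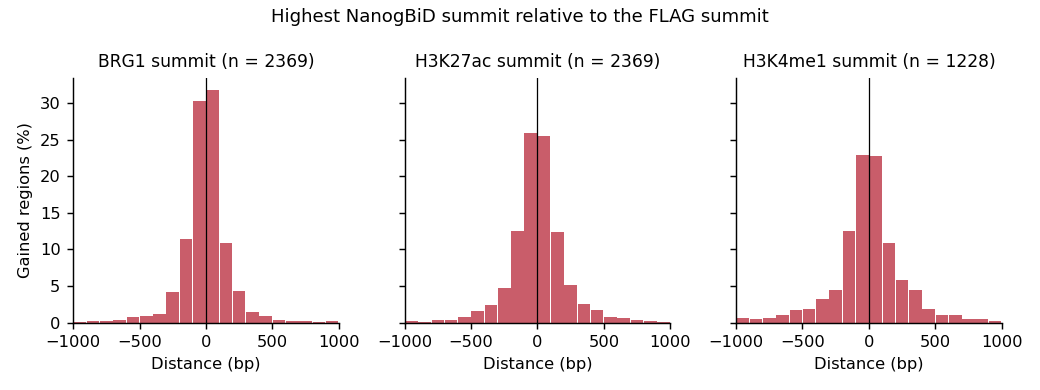
Distance in bp from the highest FLAG summit to the highest BRG1, H3K27ac and H3K4me1 summit of NanogBiD in gained regions, as percent of regions in 100-bp bins; negative values lie towards the start of the chromosome. The 2 bins next to 0 hold 30.2% and 31.8% of BRG1 summits, and less for the marks.

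Short motifs were searched on both strands within 50 bp of each FLAG summit, and as a local background in equally long windows 1 kb downstream. They were AP-1 (TGAGTCA), CRE (TGACGTCA), the OCT octamer (ATGCAAAT), an OCT-SOX core (TTGTNATGC), SOX (ACAATGG or ACAAAGG), a NANOG core (TAATGG), ESRRB (TCAAGGTCA), KLF (GGGTGTGG), TEAD (GGAATG), RUNX (TGTGGTT) and the CTCF consensus. They can overlap one another, and a match is a run of letters, not a bound site. Of the 2369 windows 1599, or 67.5%, held none of the 11.

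AP-1, the site of FOS and JUN dimers, was the most frequent match. It was found at 202 gained regions, 8.53% (7.47 to 9.72), against 1.94% of the distant windows, a difference of 6.58 points (5.35 to 7.87). Over all regions with a FLAG peak in NanogBiD, AP-1 was at 7.73% of summits and 1.75% of distant windows. The AP-1 excess was thus not particular to gained regions, whose share differed from all other such regions by 0.83 points (-0.25 to 2.03). In gained regions the NANOG core was at 8.10% of summits and 3.89% of distant windows, SOX at 5.40% and 3.42%, and the OCT octamer at 3.33% and 0.549%. The OCT-SOX core, bound jointly by OCT4 and SOX2, was at 24 summits (1.01%) and 6 distant windows. TEAD was at 6.80% (5.85 to 7.88) and 5.24% (4.41 to 6.21). RUNX did not stand apart from its distant windows, with 2.997% (2.38 to 3.76) and 2.70% (2.12 to 3.44), and ESRRB was found at 2 summits and in 5 distant windows. Over all regions with a FLAG peak in NanogBiD, the summit shares were 2.51% for the OCT octamer, 4.82% for SOX and 6.76% for TEAD.

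Of the 11 motif shares, 4 had an interval of the difference from unacetylated fusion-only regions that excluded 0, with no adjustment for the number of motifs. AP-1 differed from unacetylated fusion-only regions by -0.49 points (-1.75 to 0.86), the OCT octamer by -0.50 (-1.30 to 0.41), SOX by -0.34 (-1.35 to 0.77) and TEAD by 0.38 (-0.73 to 1.59). The NANOG core was less frequent in gained regions, at 8.10% against 11.03% (difference -2.92, -4.19 to -1.56), and so was RUNX, at 2.997% against 4.09% (-1.09, -1.87 to -0.21). CRE, the site of CREB and ATF factors, was more frequent at 13 summits, 0.549% against 0.192% (0.36, 0.095 to 0.75), and so was KLF at 24 summits, 1.01% against 0.369% (0.64, 0.27 to 1.15). The NANOG core difference depended on the settings: it was -1.15 points (-3.13 to 1.04) with scores of at least 100, 0.39 (-2.35 to 3.43) with the 20000 best peaks and -0.67 (-1.92 to 0.68) around the BRG1 summit. The CRE difference rests on few matches: its direction turned at FLAG heights of 20 tags or more (2 matches in gained regions) and at a GC content under 40% (0 matches), and its interval included 0 at 45% or more. Over all regions with a FLAG peak in NanogBiD these 4 shares were 7.35%, 3.41%, 0.278% and 0.735%. Base composition moved with them, as given below: within bands of GC content the NANOG core difference lay between -3.11 and -2.04 points, and in the middle band its interval included 0 (-4.39 to 0.63). The KLF difference was 1.098 points (0.32 to 2.06) at a GC content of 45% or more, and the intervals of both lower bands included 0, with a turned direction (-0.20) under 40%.

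**Figure D5:**
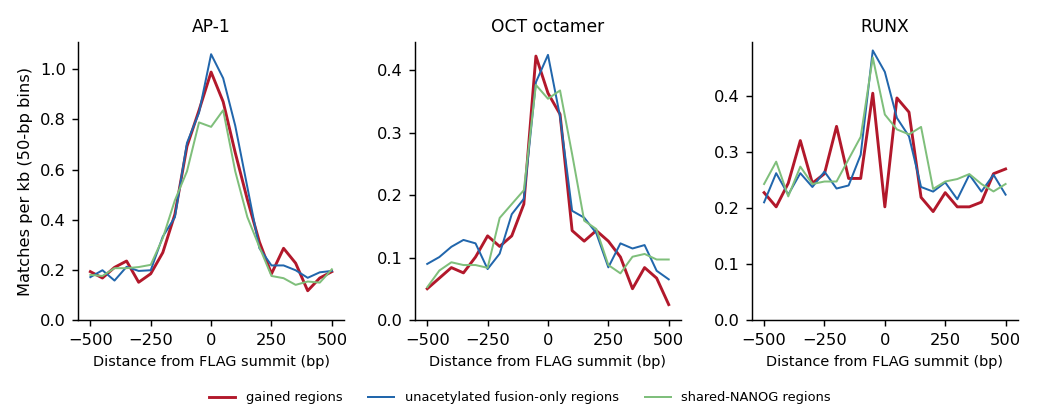
Matches per kb to the AP-1, OCT octamer and RUNX motifs in 50-bp bins around the FLAG summit of NanogBiD, for gained regions, unacetylated fusion-only regions and shared-NANOG regions. In gained regions AP-1 reaches 0.988 matches per kb at the summit against 0.194 at 500 bp, while RUNX has 0.203 in the central bin but 0.405 and 0.397 in the bins on either side of it.

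Gained regions with an OCT octamer or NANOG core had higher FLAG peaks than those without. FLAG heights had a median of 22 tags with and 17 without the OCT octamer, 21 and 17 with and without the NANOG core, and 19 and 17 for AP-1. Their H3K27ac medians lay between 12 and 13 tags with or without each of these. H3K4me1 in NanogBiD only was found at 33.9% (27.5 to 40.8) of regions with a NANOG core and 25.3% (23.5 to 27.2) of those without, and H3K4me1 in NanogWT at 48 of the 192 with it and 36.1% (34.1 to 38.1) of the others. For AP-1 the shares with H3K4me1 in NanogBiD only were 26.2% with and 26.0% without the motif.

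The 5 regions with an OCT-SOX core and the highest peaks include those whose sequence is given above. The Sntb2 intron region had 26 tags for FLAG, 22 for BRG1 and 21 for H3K27ac, with an H3K4me1 peak of 13 tags in NanogBiD and none in NanogWT. The Msi2 intron region, in a gene for an RNA-binding protein of stem cells, had 38, 32 and 20 tags and an H3K4me1 peak of 15 tags in NanogBiD alone. Regions in introns of Ube2h (24, 14 and 14 tags) and Mpped2 (18, 17 and 13) had no H3K4me1 peak. The fifth, intergenic and 68.4 kb from Tmem182, had 14, 14 and 12 tags with H3K4me1 at 17 tags in NanogBiD and 15 in NanogWT. Of the 5 AP-1 regions chosen in the same way, one in a Tenm4 intron had 31, 22 and 20 tags. Cdc37, a kinase co-chaperone, held an AP-1 region in a UTR exon with 36, 28 and 21 tags.

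Gained regions were richer in GC than unacetylated fusion-only regions. Within 150 bp of the FLAG summit the median GC content was 44.9%, against 41.2% in unacetylated fusion-only, 42.9% in shared-NANOG and 44.5% in all regions with NanogBiD FLAG. CpG dinucleotides were at 0.231 of the number given by base composition (0.224 to 0.238), against 0.182 in the unacetylated regions. The values were 0.214 in shared-NANOG regions and 0.235 in all regions with NanogBiD FLAG. Repeats covered a median of 8.64% of these windows, and 4.18% of windows were over 50% repeat, a difference of -1.51 points from the unacetylated regions (-2.43 to -0.49).

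Most gained regions lay away from promoters. Of the FLAG summits 13.3% (11.9 to 14.7) were within 2 kb of an annotated start site, 3.04% in other exons, 45.8% in introns and 37.9% between genes. The first share was 8.10% with promoters of 1 kb and 8.32% with start sites of protein-coding genes. At 2 kb from any start site, the promoter share was 4.24 points above that of unacetylated fusion-only regions (2.77 to 5.80). It was 2.70 above that of shared-NANOG regions (1.098 to 4.37), but below the 23.0% of all regions with NanogBiD FLAG. With the 20000 best peaks the difference from unacetylated regions was 0.75 points (-1.72 to 3.55). Within bands of GC content the difference from unacetylated regions was 5.41 points under 40% GC, and 2.07 (-0.42 to 4.87) and 1.87 (-0.62 to 4.46) in the higher bands. The median distance to a start site was 13.0 kb (12.1 to 14.0) for any gene and 27.2 kb for a protein-coding gene, against 16.6 and 40.4 kb in unacetylated regions.

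Gained regions were found on every autosome and on X. They made up between 19.8% and 26.6% of the fusion-only FLAG and BRG1 regions of each autosome, and 27 of 206, or 13.1% (9.17 to 18.4), on X. H3K27ac is part of the rule, so this is a description, and the sex of the embryos behind each library is not given.

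The share of gained regions with NanogWT H3K27ac nearby depended strongly on the peak lists. An H3K27ac peak of NanogWT lay within 5 kb of 429 gained regions, 18.1% (16.6 to 19.7), and of 14.7% of unacetylated fusion-only regions, a difference of 3.44 points (1.73 to 5.23). Within 20 kb the shares were 57.3% and 44.2%, and 49.1% in shared-NANOG regions. The median distance was 15.8 kb (15.01 to 16.8), against 25.1 kb in unacetylated and 20.6 kb in shared-NANOG regions. A NanogWT FLAG peak lay within 1 kb of 6.63% of the gained regions and a BRG1 peak within 1 kb of 2.79%. The share within 5 kb was 6.27% with scores of at least 100, 4.46% with the 20000 best peaks and 25.8% when summit windows were merged. Limited to peaks scoring at least 100 in all lists the difference within 5 kb was -1.07 points (-2.64 to 0.73), so its direction depended on the score threshold.

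Some gained regions lay near each other. Another one was within 50 kb of 380 regions (16.0%), and 2 or more others of 45. No such count was made for the comparison sets or all merged regions, so clustering was not tested and these numbers are a description. The densest group was in Camkmt, which encodes the calmodulin lysine methyltransferase. On chromosome 17, summits at 85142849, 85151909 and 85165665 had FLAG heights of 32, 23 and 31 tags, BRG1 heights of 18, 11 and 17, and H3K27ac heights of 17, 13 and 16. The first and second had 4 other gained regions within 50 kb and the last had 3. A further group lay in introns of Ksr2, a scaffold of the RAF and MEK kinases, where summits at 117712277 and 117676014 on chromosome 5 each had 3 others within 50 kb and H3K27ac heights of 12 tags, 264 and 286 kb from H3K27ac of NanogWT.

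Genes near gained regions were examined with 9 lists. Of 21728 protein-coding genes 4465, or 20.5%, had a start site within 100 kb of a gained region, and of 142 listed genes 38, or 26.8%. Nearness is a position only, since no expression is in these data. By list the counts were 5 of 15 naive and core pluripotency factors, 2 of 19 pluripotency markers, 4 of 12 AP-1 factors, 2 of 13 TEAD and Hippo pathway genes, 8 of 21 fibroblast and mesenchymal genes, 4 of 20 genes of TGF-beta, BMP and Nodal signalling, 4 of 17 BAF subunits and 4 of 15 germ layer and trophoblast regulators. Of 10 annotated microRNA hosts of embryonic stem cells 5 counted, all of the Mir302 cluster through 1 region. Unacetylated fusion-only regions, which are more numerous, were near 66 of the 142 listed genes (46.5%) and 38.99% of protein-coding genes.

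Among pluripotency factors, Sall4, Tbx3 and Esrrb had the nearest gained regions. The study named Sall4, Esrrb and the Mir302 cluster as targets from the same experiment, so they are not independent examples. At Sall4, a zinc finger factor of embryonic stem cells, the summit lay 0.042 kb from a start site, with 14 tags for FLAG, 11 for BRG1 and 14 for H3K27ac, and H3K4me1 in NanogBiD alone at 11 tags. At Tbx3, a T-box factor that sustains the naive state, the summit was 0.974 kb downstream of a start, with 11 tags for each target, and H3K4me1 was present in both arms at 14 tags. In Esrrb, an orphan nuclear receptor of the naive network, an intronic summit 3.84 kb downstream of a start had 16, 9 and 10 tags, with H3K4me1 in NanogWT alone at 11 tags. All 3 were low beside the median gained region for at least 1 target. The markers Epcam and Foxb1 were 59.5 and 90.3 kb from theirs. The Mir302 cluster, whose microRNAs are made in embryonic stem cells, was 47.0 kb from a region at an Ank2 promoter with 10, 7 and 13 tags.

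Of the 21 fibroblast and mesenchymal genes, the nearest to a gained region were Twist1, Prrx1 and Dab2. Twist1, a mesenchymal basic helix-loop-helix factor, had a gained region 21.7 kb away with 39 tags for FLAG, 26 for BRG1 and 12 for H3K27ac, only 0.352 kb from an H3K27ac peak of NanogWT. Prrx1, a homeobox gene of mesenchyme, was 27.6 kb from a region of 16, 13 and 11 tags, and Dab2, an endocytic adaptor, 61.3 kb from one of 23, 15 and 14 tags. Of AP-1 genes, Fosl1 was 16.1 kb, Atf3 24.3 kb and Jund 55.8 kb from the nearest gained region. Fosl1 owes its place to a region at the Fibp promoter with 9, 12 and 18 tags. Tead1, a TEAD factor of the Hippo pathway, had the strongest NANOG peak of all genes named by distance, 46 tags, with 22 for BRG1 but 11 for H3K27ac, in its own intron 5.88 kb from a start. Amotl2, an inhibitor of YAP, was 36.0 kb from a region of 16, 11 and 11 tags.

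Shares of signalling genes and BAF subunits near a gained region, as counted above, were close to that of all protein-coding genes. Bmpr1a, a receptor for BMP ligands, held one 7.06 kb from a start with 37, 24 and 16 tags for FLAG, BRG1 and H3K27ac. Skil, a repressor of SMAD signalling, held one 10.5 kb from its start with 16, 15 and 11 tags and an H3K4me1 peak of 20 tags in NanogWT. Tgfbr1, a TGF-beta receptor, was 42.0 kb from a region in Col15a1 with 13, 10 and 12 tags. Ss18, whose N-terminal domain is part of the fusion, held one in an intron 6.22 kb from a start with 13, 14 and 12 tags. Smarcc1, a core BAF subunit, held one with 14, 11 and 11 tags, and Smarcd2 was 65.0 kb from one with 11, 11 and 15 tags. Of lineage regulators, Gata3 was 14.0 kb from a region of 11, 11 and 9 tags, T (brachyury) 61.9 kb from one of 19, 13 and 19 tags at the T2 promoter, and Tfap2a 77.7 kb from one of 26, 16 and 15 tags.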

How the data were processed

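CUT&Tag was performed on MEFs at day 5, with 1 merged library for each of 4 targets in 2 arms. The authors trimmed reads with Trim Galore 0.6.4, aligned them to mm10 with Bowtie2 2.4.5, removed poorly mapped, repetitive and mitochondrial reads with SAMtools 1.16.1, merged replicates and called peaks with MACS 1.4.2 with no control library named. The score of each deposited peak is the caller's own significance score. The deposited signal of a summit is how many tags pile up there. Neither was scaled to depth, and the depth is unknown.

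Peaks and summits were joined by name, and each region took the highest summit of each list. Coordinates are 1-based mm10, start sites and genes are those of GENCODE M21, and sequence was read from GRCm38. Promoters were 2 kb either side of a start site; tools were Python 3.11.15, pysam 0.24.0 and scipy 1.17.1. The regions and gene lists were chosen with earlier results of these data known. Named were the 10 regions with the highest value of the lowest of 3 heights, 5 each for the OCT-SOX core, for AP-1 and for the number of neighbours, and for each list the 3 genes nearest to a gained region. One of these regions is not reported here. Shares have Wilson, differences Newcombe and medians order-statistic 95% intervals, which cover counting error over regions and not the spread between cultures; with 1 library per group no p-value was computed. Classification, distances and motif search were tested on simulated data. Alternative settings kept peaks scoring 100 or more, or the 20000 best peaks of each list, and further ones were summit windows of 100 bp either side, merging across 500 bp, heights of at least 15 tags, H3K27ac over 50% of the region, no NanogWT peak within 1 kb, standard chromosomes, other windows and distances and, after the data were seen, bands of FLAG height, GC content and promoters.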

Additional observations from a re-analysis of the deposited data

How the results depend on the processing

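No paired analysis was possible because replicates had been merged before deposit, leaving 1 library in every group. The number of gained regions depended on the threshold: 1053 with peaks scoring 100 or more, 672 with the 20000 best peaks per list and 1040 with heights of at least 15 tags. Of these, 367, 127 and 295 overlapped a gained region of the full lists. The limits were applied to NanogWT lists too. The other 5 settings gave between 2116 and 2436, and of the 2436 with summit windows 1725 (70.8%) overlapped a gained region of the full lists. The excess of NanogBiD-only H3K4me1 over unacetylated fusion-only regions stayed above 0 in all 16 alternatives, with 1.70 points and an interval that included 0 at promoters. Promoter regions with H3K4me1 in NanogWT (44.6% of gained, 18.4% of unacetylated) could not count as NanogBiD only. Against shared-NANOG regions the NanogBiD-only excess was -1.01 points with summit windows, and its interval included 0 with the 20000 best peaks. The promoter excess was 0.75 points with the 20000 best peaks and 2.07 and 1.87 in the bands of higher GC content, each with an interval that included 0. The difference in NanogWT H3K27ac within 5 kb turned to -1.07 points with peaks scoring 100 or more and -0.98 with the 20000 best peaks. The NANOG core difference turned to 0.39 with the 20000 best peaks, and its interval included 0 under the score limit (-1.15), around the BRG1 summit (-0.67) and at a GC content of 40% to 45% (-2.04). The AP-1 excess at summits over distant windows was called in 12 of 12 alternatives, from 3.50 to 12.5 points, and the higher GC content in 8 of 8. The median BRG1 distance was 60 bp under the score limit, 59 for the best peaks, 51 when summit windows were merged and 51 under the height limit, where median H3K27ac heights were 15, 16, 13 and 17 tags in that order. Listed genes near a gained region numbered 16 under the score limit, 11 for the best peaks, 15 under the height limit and 21 within 50 kb. The causes of these shifts were not tested, and unknown depth limits every call of an absent peak.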
